A study of Drosophila melanogaster with 2 samples.

Results

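The weak promoter peaks were 6231 of the 30000 peaks in the authors' pooled relaxed list of Sry-beta binding in Drosophila melanogaster embryos. A relaxed list holds peaks together with background, and is the input from which reproducible peaks are drawn by the irreproducible discovery rate (IDR) procedure. The weak promoter peaks were chosen by pooled signal, through the IDR list, and by distance: a peak counted if it overlapped none of the 3257 peaks of the authors' IDR list by 1 bp or more and if its summit lay within 500 bp of the transcription start site (TSS) of a protein-coding gene. Of the 25871 pooled peaks outside the IDR list, these were 24.1%. The other 19640, with summits farther from a TSS, are called weak distal peaks, and the 1988 members of the IDR list that had their summit that near to a TSS are called IDR promoter peaks. The study measured chromatin immunoprecipitation and sequencing (ChIP-seq) in 1 group of 2 libraries, biological replicates 2 and 4. Both came from whole embryos of either sex, 0 to 12 h old, of a stable transgenic line (strain Sry-beta-GFP) in which Sry-beta is fused at its C-terminal end to GFP. The labels give neither the promoter that drives the fusion nor whether the endogenous gene was intact. They name both libraries input controls in their free text, although the assay title names a transcription factor ChIP, an antibody is given and peaks were called, and the libraries were treated as ChIP. With whole embryos, cell types cannot be told apart, and a single group allows no contrast between conditions.

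Sry-beta is a zinc finger protein with an N-terminal zinc-finger-associated domain (ZAD), encoded beside Sry-alpha and Sry-delta in the serendipity cluster. Sry-delta is its close relative and is known as an activator of bcd in the ovary. Many insect ZAD proteins bind near active promoters. Promoters of broadly expressed fly genes often carry the DNA replication-related element (DRE), bound by DREF, or Motif 1, bound by M1BP, in place of a TATA box.

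The sequences at the summits show what could be read there. The summit window, 50 bp on either side of the summit, was searched for 17 motifs on both strands, with at most 2 mismatches for the Sry-beta and Sry-delta consensus sites, at most 1 for Motif 6 and the Su(Hw) site, and none for the others. The consensus site of Sry-beta with at most 2 mismatches was present in 37 of the 6231 windows (0.594%). An equal window at -34 bp from the 5′-most TSS of all 13968 genes held it in 0.644%, so the share was not above that of promoters at large. The windows are shown as matches to the consensus of the factor itself, and binding at these letters was not tested. Of the 10 highest by signal, the 5 below are the printable ones. The windows of the other 5 are not printed. Capitals mark the match, and sequences are from the Release 6 (dm6) assembly, 5′ to 3′ on the strand that carries the match. The gene is the one with the nearest TSS. The windows are chm (chr2L:7412297-7412397, minus strand), c12.1 (chrX:9319235-9319335, minus strand), Pak (chr3R:6353857-6353957, plus strand), Mzt1 (chr3L:2388887-2388987, minus strand) and CG14966 (chr3L:3197633-3197733, plus strand).
chm: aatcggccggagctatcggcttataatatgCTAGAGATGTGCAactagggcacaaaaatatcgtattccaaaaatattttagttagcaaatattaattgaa
c12.1: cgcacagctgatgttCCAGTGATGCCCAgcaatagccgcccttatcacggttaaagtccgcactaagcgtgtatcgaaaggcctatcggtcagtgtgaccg
Pak: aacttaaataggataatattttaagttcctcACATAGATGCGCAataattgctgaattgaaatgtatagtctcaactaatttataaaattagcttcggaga
Mzt1: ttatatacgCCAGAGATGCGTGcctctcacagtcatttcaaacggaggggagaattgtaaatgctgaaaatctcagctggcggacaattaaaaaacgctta
CG14966: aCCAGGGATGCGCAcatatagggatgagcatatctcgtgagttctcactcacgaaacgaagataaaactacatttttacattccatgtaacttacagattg

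The chm gene encodes a MYST-family histone acetyltransferase. Its peak had a signal of 168.0, on the authors' own scale, and ranked 3294 in the pooled list, 3069 in replicate 2 and 5356 in replicate 4. The site lay 14 bp from the summit, which was at -70 bp from the TSS. The c12.1 peak had a signal of 142.8 and ranked 2500 in replicate 2 and 7587 in replicate 4. Pak, a p21-activated kinase gene, had a signal of 124.9 and a replicate 4 rank of 4080, with no replicate 2 summit within 100 bp. Mzt1, which encodes a small protein of the gamma-tubulin ring complex, had a signal of 111.9 and ranks of 7955 and 7484. The CG14966 site was the only one of the 10 with 1 mismatch. Its peak had a signal of 110.1 and ranks of 4934 and 5619. The 5 without a printed window were nearest to Tlk, CG1943, Strn-Mlck, Nnk and Opa1, with signals from 100.3 to 159.2. Of the 10, 6 had a summit within 100 bp in both replicate lists, 6 were upstream of the TSS, and 6 also held one of the 5 core promoter motifs named below. Over all 37 the median signal was 58.4, below the 65.1 of all weak promoter peaks.

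Next are shown 6 windows with a DRE (TATCGATA) or Motif 1 (GGTCACAC), the motifs that differed most between weak promoter summits and flanks 500 bp away. The summits were chosen near a TSS, which places such motifs, so that difference can follow from the choice. The windows are the 3 highest printable ones for each motif. Cap-H2 (chr3R:10761124-10761224, plus strand), CG11737 (chr3R:8517796-8517896, plus strand) and KdelR (chr2L:10426796-10426896, plus strand) held a DRE. Dmtn (chr3R:6405885-6405985, plus strand), CG10068 (chr3R:7128165-7128265, plus strand) and RasGAP1 (chr3L:9855310-9855410, minus strand) held Motif 1. Capitals mark the motif.
Cap-H2: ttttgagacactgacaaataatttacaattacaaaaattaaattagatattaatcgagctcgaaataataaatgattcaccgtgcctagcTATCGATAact
CG11737: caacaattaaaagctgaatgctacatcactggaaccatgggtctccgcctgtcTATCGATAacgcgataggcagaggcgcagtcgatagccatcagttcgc
KdelR: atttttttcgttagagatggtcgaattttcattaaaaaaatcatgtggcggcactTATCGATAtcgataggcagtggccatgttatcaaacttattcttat
Dmtn: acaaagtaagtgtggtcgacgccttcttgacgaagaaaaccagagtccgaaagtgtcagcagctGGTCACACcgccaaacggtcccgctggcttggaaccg
CG10068: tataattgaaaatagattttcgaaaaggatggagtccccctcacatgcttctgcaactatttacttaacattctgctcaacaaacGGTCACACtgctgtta
RasGAP1: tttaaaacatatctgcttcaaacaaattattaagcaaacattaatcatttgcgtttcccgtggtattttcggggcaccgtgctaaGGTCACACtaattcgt

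Cap-H2 encodes a condensin II subunit. Its peak had a signal of 168.3 and ranked 10411 in replicate 2 and 2885 in replicate 4. In its window the DRE shares bases with a TAGCTA palindrome, which was the case in 4 of the 102 weak promoter windows with TAGCTA and in 3 of the 181 IDR promoter windows with it. KdelR, the gene of the receptor that returns proteins to the endoplasmic reticulum, had a signal of 163.1 and a replicate 4 rank of 3016, with no replicate 2 summit within 100 bp. The Dmtn peak, with a signal of 164.1, ranked 2654 and 2966. It was 1 of 2 weak promoter peaks that stood among the 3257 highest of both replicate lists. The other was nearest to slim, with a signal of 159.0 and ranks of 3212 and 3081. These 2 were singled out after their values were seen.

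The limits that chose the peaks follow. The IDR list was the same as the 3257 pooled peaks of highest signal, so being outside it meant a pooled signal below 169.35. A further 872 pooled peaks below that signal overlapped an IDR peak and were not counted. The pooled signal of weak promoter peaks ran from 36.3 to 169.3, against a median of 310 for IDR promoter peaks and 51.1 for weak distal peaks. Just inside the limit stood LeuRS-m (169.34), PGS1 (169.29) and Ptpmeg (169.16). Just outside, among IDR promoter peaks, stood CG16790 (169.35), Sirt1 (169.56) and Ero1L (169.60). At the distance limit the summits nearest to ed, bchs and SoxN were 500 bp from the TSS, with signals of 87.1, 38.7 and 94.4. Those nearest to Treh, SCOT and zormin were 1 bp farther away, with signals from 36.9 to 81.4. The last 100 bp inside the limit held 570 weak promoter peaks, and the first 100 bp outside it held 542 weak distal peaks. Of the weak promoter peaks, 2095 (33.6%) had a deposited q-value at or under 0.05 and 1313 (21.1%) at or under 0.01, against 14.8% and 7.84% of weak distal peaks. Only 231 (3.71%) had an IDR summit within 1000 bp, and the median distance to one was 9486 bp.

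The 20 highest weak promoter peaks had signals within a narrow range, 168.2 to 169.3. Their nearest genes included LeuRS-m, which encodes mitochondrial leucyl-tRNA synthetase, PGS1, Ptpmeg, CG17746, CG1307, Rtnl1, which encodes a reticulon, CG17574, qkr58E-2, CG6700, PolE4, Jwa, Tak1, nudE, lawc, GstE1, CG42239, Cap-H2, Nepl19 and Moe, the gene of moesin. Their summits were upstream of the nearest TSS in 17 of the 20, and in 9 the window held TSSs of more than 1 gene. All but lawc had a summit within 100 bp in both replicate lists. Their ranks in the 2 libraries differed widely all the same. PGS1 ranked 17455 in replicate 2 and 2316 in replicate 4, GstE1 ranked 2063 and 17432, and CG17746 ranked 2360 and 3386. In each replicate 9 of the 20 were among its 3257 highest.

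The 2 libraries gave weak promoter peaks of different composition, and the values here stand beside every result below. Of the 6231, a summit within 100 bp was listed in replicate 2 for 3572 (57.3%) and in replicate 4 for 3700 (59.4%). It was listed in both for 2096 (33.6%, 95% Wilson interval 32.5 to 34.8), in replicate 2 only for 1476, in replicate 4 only for 1604 and in neither for 1055 (16.9%). For weak distal peaks both lists held 23.7% and neither held 24.0%. For IDR promoter peaks the shares were 85.9% and 0.453%. Because the pooled list was made from the same 2 alignments, these shares are a description. Intervals here cover the number of peaks only, and depth is unknown. Weak promoter peaks found in replicate 2 only had a mean GC content of 44.3% in the summit window, against 40.0% for those found in replicate 4 only. Motif 1 was in 4.88% of the replicate 2 ones (95% Wilson interval 3.89 to 6.1) and in 1.31% of the replicate 4 ones (0.858 to 1.99). The DRE was in 3.93% and 2.49% of them, Motif 7 in 4.40% and 1.68%, and coding exons held 7.38% and 11.2% of their summits. Base composition and library thus moved with motif content, and their part in the motif results was not tested.

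Whether a weak promoter peak of 1 library was found again in the other was asked with the library left out of the choice. Promoter peaks below the 3257 highest of replicate 2 were found within 100 bp in replicate 4 in 35.5% of 6294 cases (95% Wilson interval 34.3 to 36.7), against 25.7% of 19986 weak distal peaks. In the other direction the shares were 39.4% of 6012 (38.1 to 40.6) and 26.5% of 19596. Among the highest of 5 rank bins of the replicate 2 peaks the shares were 51.8% for promoter and 53.3% for distal peaks. In the lowest bin they were 18.9% and 14.3%. For replicate 4 peaks sought in replicate 2 the highest bin gave 57.3% and 55.0%, and the lowest 20.1% and 14.2%. The next 2 bins below the highest gave 39.8% for promoter and 31.4% for distal peaks of replicate 4, and then 32.4% and 22.3%. For replicate 2 they gave 33.9% and 32.1%, and then 24.3% and 21.7%. The promoter share was the higher one in all bins but the highest of replicate 2, and the widest gap was in the middle bin of replicate 4. Both lists were called against the same control alignment, so these shares are given without a test.

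Weak promoter summits were centred nearer to the TSS and lay downstream of it more often than IDR promoter summits. The median position was -34 bp from the TSS for weak promoter summits, with quartiles of -169 and 84 bp, against -84.5 bp for IDR promoter summits, with quartiles of -168 and -26 bp. Upstream summits made up 59.9% of weak promoter peaks (3733 of 6231, 95% Wilson interval 58.7 to 61.1) and 83.7% of IDR promoter peaks (1663 of 1988, 82.0 to 85.2), giving an odds ratio of 0.292 (p = 2.06e-91 in a two-sided Fisher's exact test). At promoters with no head-to-head partner the shares were 61.0% and 86.3%, and at those with one they were 57.0% and 81.1%. Peaks are not independent where several share a promoter, and the test compares peaks of 1 pooled list, not samples. The odds ratio was 0.301 when only 1 peak of each nearest gene was counted. Within replicate 2 alone, promoter peaks below its 3257 highest against those among them gave 0.280, and within replicate 4 alone 0.318. Here and below, values for 1 replicate alone take both classes from that replicate's list, without the IDR list.

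**Figure D1:**
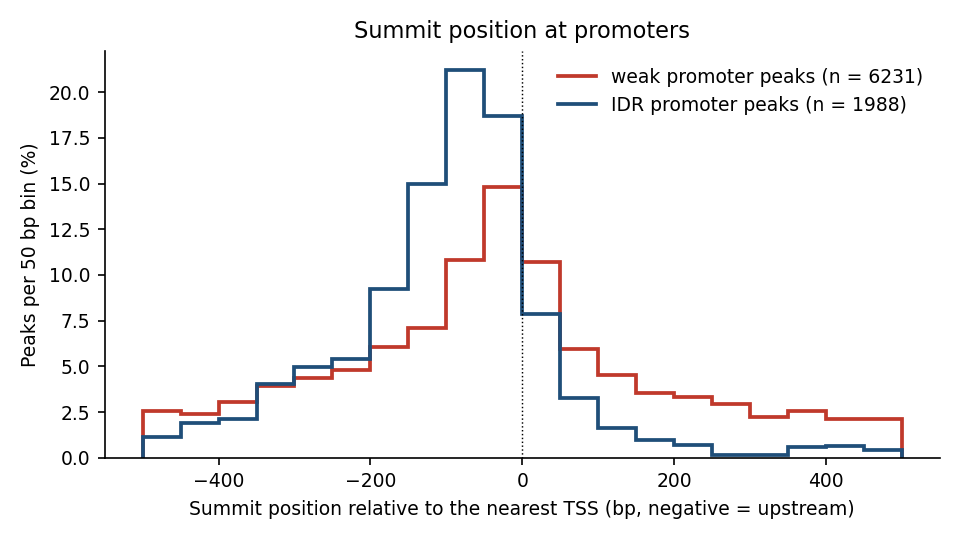
Summit position relative to the nearest protein-coding TSS (x axis, bp, negative upstream) as percent of peaks per 50 bp bin (y axis) for the 6231 weak promoter peaks and the 1988 IDR promoter peaks. Weak promoter summits were highest in the bin from -50 to 0 bp (14.8%) and IDR promoter summits in the bin from -100 to -50 bp (21.2%), and between 100 and 500 bp downstream the weak curve stayed above the other.

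The same shift showed in the annotation under the summit base. Coding exons held 8.59% of weak promoter summits (535) and 1.31% of IDR promoter summits (26). The 5′ UTR held 28.2% and 18.2%, introns 23.7% and 17.5%, and 3′ UTRs, which then belong to a neighbouring gene or another transcript, 2.29% and 0.956%. Sequence outside protein-coding transcripts held 37.2% and 62.1%. Summit windows of weak promoter peaks had a mean GC content of 41.8%, close to the 43.1% of their own flanks and equal to the 41.8% of weak distal windows. IDR promoter windows had 36.4%, against 46.1% in their flanks. The dip in GC content at the summit was thus small at weak promoter peaks.

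Head-to-head gene pairs were less frequent among weak promoter peaks than among IDR promoter peaks. A partner TSS on the opposite strand, upstream within 1000 bp, was present at 27.7% of weak promoter peaks (1725, 95% Wilson interval 26.6 to 28.8) and at 50.5% of IDR promoter peaks (1004, 48.3 to 52.7), giving an odds ratio of 0.375 (p = 6.12e-76 in a two-sided Fisher's exact test). Over all 19630 distinct TSSs, those at IDR promoter peaks included, the share was 31.5%, slightly above that of weak promoter peaks. That share counts TSSs and not peaks, and the difference was not tested. The odds ratio was 0.41 with 1 peak per nearest gene and 0.457 against the IDR promoter peaks below their median signal.

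Both shares moved with signal inside the weak promoter peaks themselves. From the lowest to the highest of 5 bins of equal size by pooled signal, upstream summits made up 49.9, 55.3, 57.3, 62.5 and 74.5%, and the IDR promoter peaks below and above their median signal continued with 81.0 and 86.3%. Head-to-head partners followed the same order, with 20.3, 23.1, 25, 30.6 and 39.4%, and then 45.6 and 55.4%. In the lowest bin, with signals from 36.3 to 44.8, summits were as often upstream as downstream. The share found in both replicates was 5.62% in that bin and 69.3% in the highest. That rise is a description only, since the pooled signal was made from the same 2 libraries. Promoters also thinned out along the list. With the pooled peaks outside the IDR list in 10 bins by rank, 46.7% of the highest bin and 15.9% of the lowest were at promoters, while windows of 500 bp around TSSs cover 11.5% of the assembled bases.

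**Figure D2:**
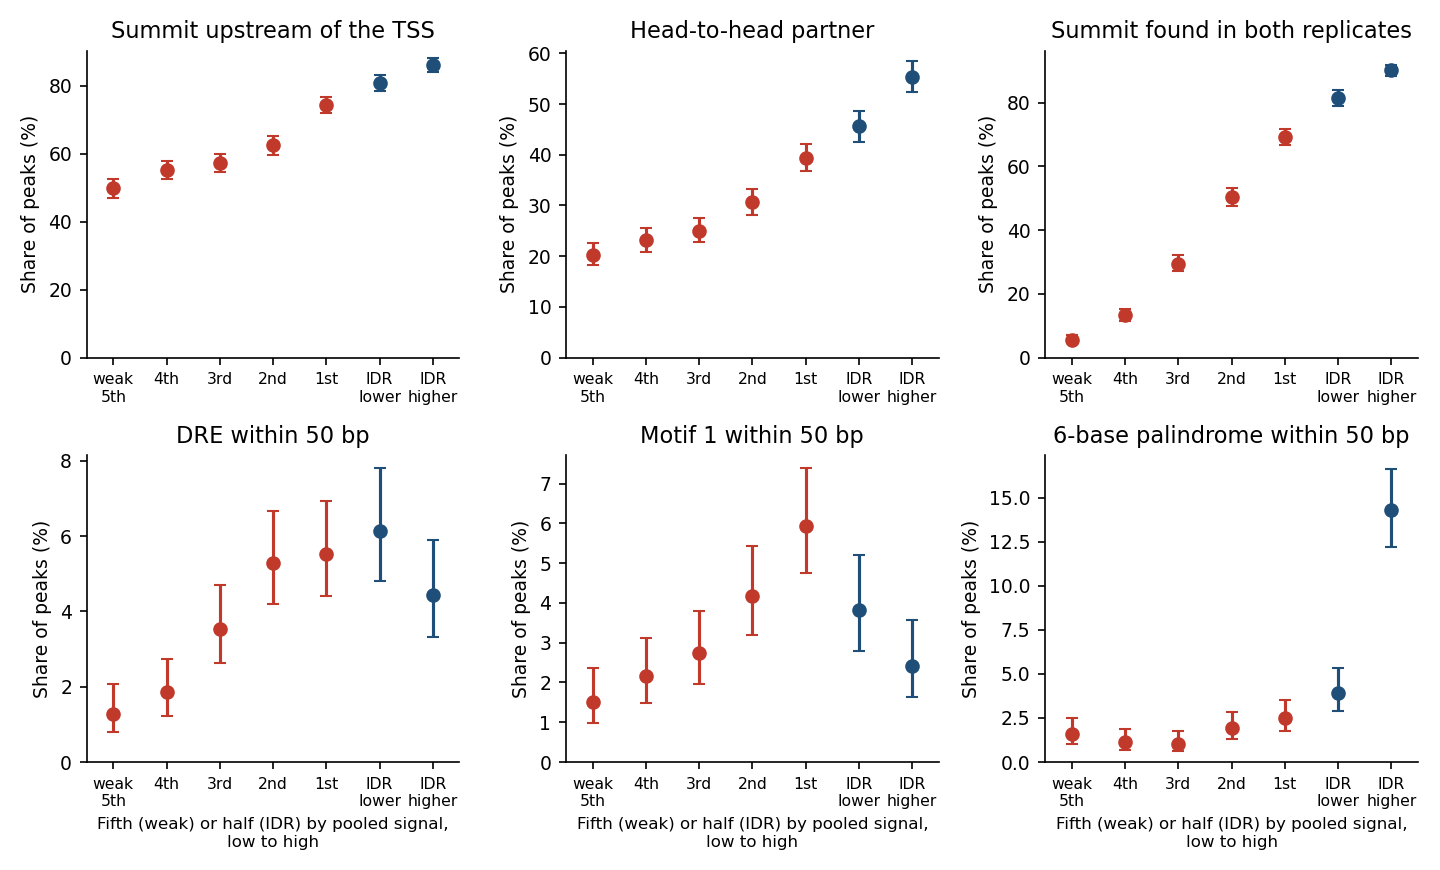
Share of peaks (y axes, percent) with an upstream summit, a head-to-head partner, a summit in both replicate lists, a DRE, Motif 1 or the 6-base palindrome TAGCTA, for 5 bins of the weak promoter peaks and 2 bins of the IDR promoter peaks ordered from low to high pooled signal (x axes); points are shares and bars 95% Wilson intervals. The first 3 shares climb through both classes, the DRE is at 5.30 and 5.53% in the 2 highest weak bins, and the palindrome is highest in the higher IDR bin (14.3%). The replicate share is a description only, since the pooled signal was made from the same 2 libraries.

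Core promoter motifs were more frequent at weak promoter summits than in flanks 500 bp away. The summits were chosen near a TSS, and core promoter motifs are placed by the TSS. A difference from the flanks can follow from that choice, so these tests cannot separate the summit from the promoter. An equal window was also set at -34 bp from the 5′-most TSS of all 13968 genes. It held the DRE in 6.84%, Motif 1 in 4.58% and Motif 7 in 5.30%, each above the share at weak promoter summits. The DRE was within 50 bp of 218 summits (3.50%, 95% Wilson interval 3.07 to 3.98) and in 0.425% of equal windows centred 500 bp to either side, an odds ratio of 8.43 (Benjamini-Hochberg adjusted p = 1.06e-56 in a two-sided Fisher's exact test). Motif 1 was at 3.31% of weak promoter summits and 0.498% of flanks, with an odds ratio of 6.80 (adjusted p = 6.17e-48 in the same exact test). Motif 7 was at 3.48% and 0.875%, an odds ratio of 4.08 (adjusted p = 3.25e-34, exact test). Motifs 5 (CAGCTG) and 6 stood at 7.09% against 5.09% and at 3.98% against 2.26%. Of the 17 motifs, 12 were more frequent at weak promoter summits than in their flanks and 1, the Bicoid site (TAATCC), was less frequent, at 2.73% against 3.52%. Motifs 6 and 7 are longer degenerate core promoter motifs and are given by name. Any of the 5 core promoter motifs was present at 19.0% of weak promoter summits, and 60.0% held none of the 17. The DRE and Motif 1 seldom met in 1 window, with 13 weak promoter windows holding both, 205 the DRE without Motif 1 and 193 Motif 1 without the DRE.

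Sites for Sry proteins were rare but more frequent at the summit than beside it. The core AGAGATG, which lies within both Sry consensus sites, was at 1.73% of weak promoter summits (108) and 0.835% of windows beside them, giving 2.10 as the odds ratio (adjusted p = 4.02e-07 in the two-sided Fisher's exact test). The consensus of Sry-delta stood at 1.40% against 0.802%, and that of Sry-beta at 0.594% (37) against 0.217%, an odds ratio of 2.74 (exact test, adjusted p = 0.000199). These shares were not above those of promoters at large. The window at -34 bp from the 5′-most TSS of all genes held the core in 2.33%. It held the Sry-delta consensus in 2.31% and that of Sry-beta in 0.644%. The tests against flanks thus cannot separate the summit from the promoter. The Sry-beta difference from flanks was not past the threshold among weak promoter peaks above their median signal (odds ratio 1.87, exact test, adjusted p = 0.158) nor in replicate 4 alone (1.5, adjusted p = 0.183). With at most 1 mismatch it was present in 3 of 6231 summit windows and in 0 of 12462 flanks, and no weak promoter window held the exact consensus. With at most 3 mismatches it was in 4.19% of summit windows, against 3.37% of flanks, with an odds ratio of 1.25 (exact test, adjusted p = 0.00779). The CTCF site (AGAGGGCGC, AGATGGCGC, AGGGGGCGC or AGGTGGCGC) was at 0.738% of summits and 0.329% of flanks (adjusted p = 0.00041, exact test). The GAGA element (GAGAGAG), the site of the GAGA factor GAF, stood at 2.63% against 1.96% (exact test, adjusted p = 0.00535). That call did not hold above the median signal, in replicate 4 alone, within 25 bp of the summit or with 1 peak per nearest gene, where the odds ratios were 1.07, 1.04, 1.29 and 1.21. The E-box (CACGTG), the Zelda site (CAGGTAG), the Su(Hw) site and TAGCTA did not pass the test against flanks.

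**Figure D3:**
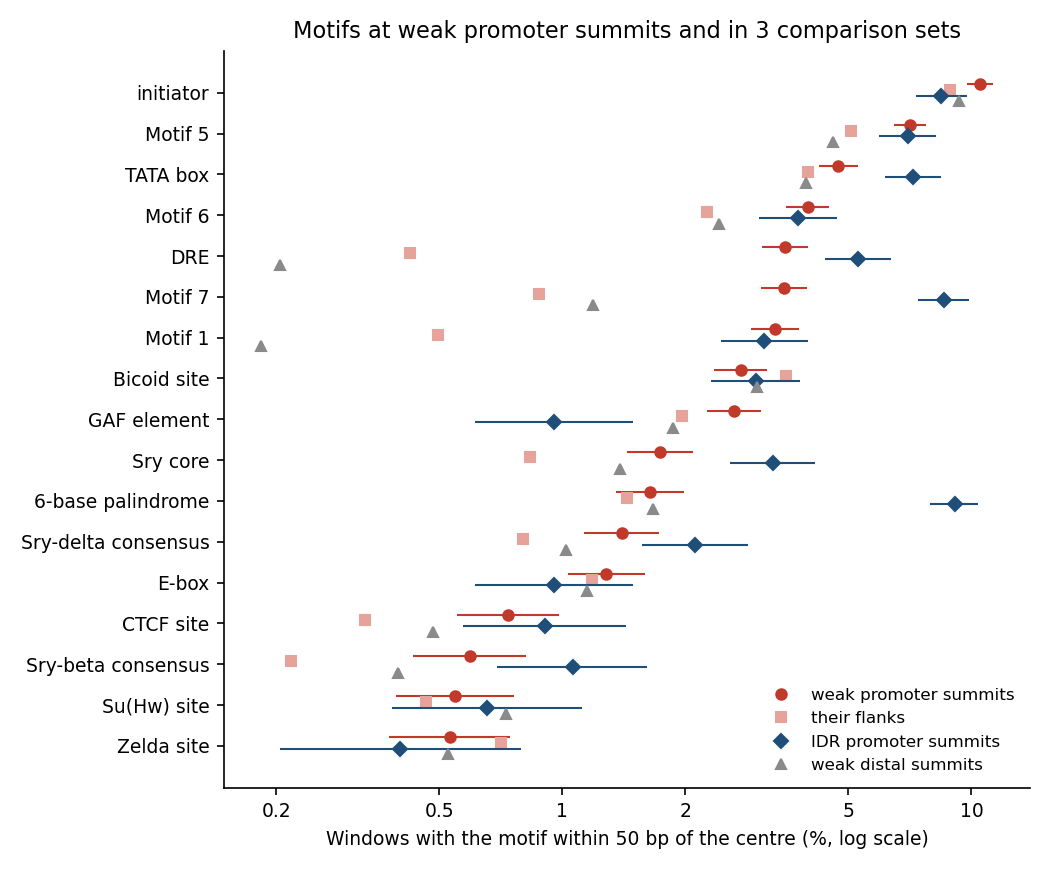
Percent of windows (x axis, log scale) with each of 17 motifs within 50 bp of the centre, at weak promoter summits, in their flanks 500 bp away, at IDR promoter summits and at weak distal summits; lines are 95% Wilson intervals for the 2 promoter classes. The DRE, Motif 1 and Motif 7 stand far right of the flanks at weak promoter summits, while the palindrome (TAGCTA) stands beside its flank value there and at 9.10% at IDR promoter summits.

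Weak and IDR promoter summits differed in which motifs they held. Motif 7 was at 3.48% of weak and 8.55% of IDR promoter summits (odds ratio 0.386, two-sided Fisher's exact test, adjusted p = 3.1e-17). The Sry core was at 1.73% and 3.27% (0.520, adjusted p = 0.000239) and the TATA box (CTATAAA or GTATAAA) at 4.73% and 7.19% (0.640, adjusted p = 0.000186), each by the same exact test. Summits of the classes lay at unlike places, with median positions of -34 and -84.5 bp from the TSS. In the window at -34 bp from the 5′-most TSS, the TATA box had the reverse order. It was in 5.84% of genes with only a weak peak and 4.29% of genes with an IDR promoter peak. Motif 7 and the Sry core kept their order there. The Sry-beta consensus, at 0.594% and 1.06%, did not pass (0.554, adjusted p = 0.0829, exact test). It was past the threshold, and lower at weak promoter summits, above the median signal (0.428), within 100 bp (0.454) and with 3 mismatches (0.698). Within replicate 2 alone, peaks below its 3257 highest against those among them gave 0.373, also past the threshold. TAGCTA is given as a description, because the word was picked for its frequency at the IDR summits of these data and its direction between the classes follows from that choice. It was at 1.64% of weak promoter summits (102) and 1.44% of their flanks, and at 9.10% of IDR promoter summits (181). The highest bin of the weak promoter peaks held it at 2.49% (95% Wilson interval 1.76 to 3.51), and the IDR promoter peaks below and above their median signal at 3.92% and 14.3%. Against their own flanks, weak promoter summits passed the threshold for TAGCTA within 100 bp of the summit and in replicate 2 alone, with odds ratios of 1.29 and 1.31.

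Motif 1 did not follow that order. It was at 3.31% of weak promoter summits and 3.12% of IDR promoter summits, an odds ratio of 1.06 (adjusted p = 0.787 in the two-sided Fisher's exact test). The value depended on the peaks compared. It was 1.49 for weak promoter peaks above their median signal (exact test, adjusted p = 0.0352). Within replicate 2 alone, promoter peaks below its 3257 highest against those among them gave 0.628 (exact test, adjusted p = 0.00041). Along the weak promoter bins, from low to high signal, Motif 1 was at 1.52, 2.17, 2.73, 4.17 and 5.93%, and in the lower and higher IDR bins at 3.82 and 2.41%. The DRE was at 3.50% and 5.28% (odds ratio 0.649, exact test, adjusted p = 0.00155), but weak promoter peaks above their median signal gave 0.919, which was not past the threshold (adjusted p = 0.629), and neither were windows of 25 bp or upstream summits alone (0.776 and 0.878). The GAGA element went the other way, at 2.63% of weak and 0.956% of IDR promoter summits (odds ratio 2.74, exact test, adjusted p = 1.59e-05). Its odds ratio stayed between 1.75 and 3.33 under 11 alternatives. The window at -34 bp from the 5′-most TSS held it in 2.71% of genes with only a weak peak (Wilson interval 2.29 to 3.2). For genes with an IDR promoter peak it was 2.3% (1.79 to 2.97), an overlapping interval. Flanks held the element in 1.96% for weak and 1.84% for IDR promoter peaks. The difference thus describes summit windows, and one between the promoters themselves was not tested. The initiator (TCAGTC or TCAGTT) was also higher at weak promoter summits, at 10.5% against 8.45% (adjusted p = 0.0212, exact test). Of the 17 motifs, 2 were higher and 5 lower at weak than at IDR promoter summits. TAGCTA is among the 5 and stayed in the adjustment over 17 motifs, but its call is no test, since it was picked from these data.

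**Figure D4:**
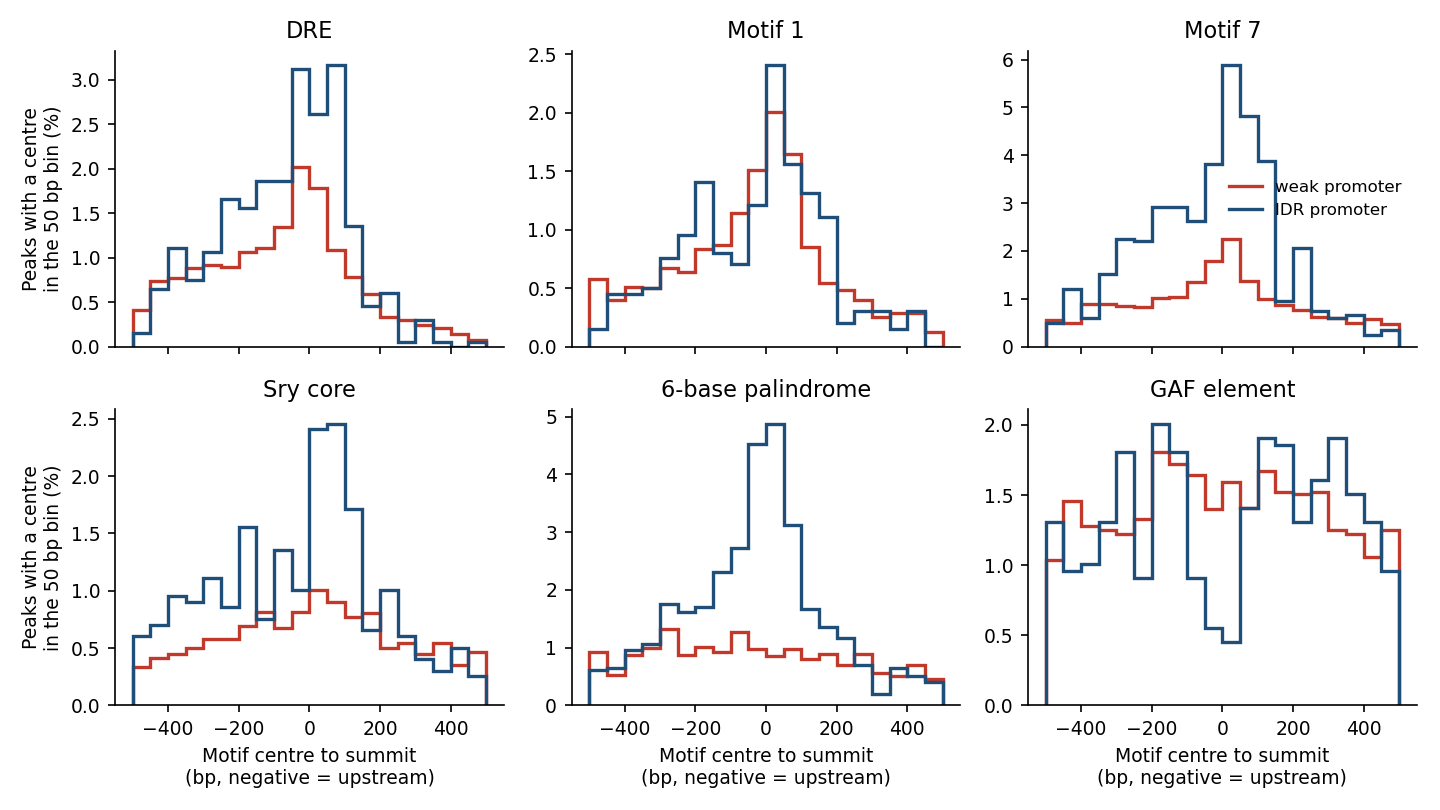
Percent of weak promoter and IDR promoter peaks (y axes) with the centre of a motif in each 50 bp bin from 500 bp upstream to 500 bp downstream of the summit (x axes, oriented by the nearest gene). At weak promoter peaks the DRE, Motif 1 and Motif 7 are highest in a bin beside the summit, at 2.02, 2.01 and 2.25%, and the palindrome has no maximum there, while at IDR promoter peaks the palindrome reaches 4.88% and the GAF element falls to 0.453% beside the summit.

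Weak promoter and weak distal summits differ by the distance to a TSS that chose them, and core promoter motifs are placed by the TSS, so their shares are set side by side as a description. The DRE was at 3.50% of weak promoter and 0.204% of weak distal summits, and Motif 1 at 3.31% and 0.183%. The Sry-beta consensus was at 0.594% and 0.397%, and the Sry core at 1.73% and 1.38%. A fixed window at the TSS was read as well for genes of each class, centred at the median position of the weak promoter summits (-34 bp) at the 5′-most TSS of each gene. This comparison was added after the data were seen. Genes with a weak promoter peak and no IDR promoter peak had a DRE there in 9.80% of 4879 cases (95% Wilson interval 8.99 to 10.7), genes with an IDR promoter peak in 12.0% of 2518 (10.8 to 13.3), and genes with no pooled summit in their promoters in 2.65% of 6555 (2.29 to 3.07). For Motif 1 the shares were 7.89, 5.92 and 1.59%, and for Motif 7 6.42, 12.9 and 1.54%. For the TATA box they were 5.84, 4.29 and 14.2%, for the Sry core 2.60, 5.28 and 1.01%, and for TAGCTA 2.21, 6.91 and 1.92%. In the DRE, Motif 1 and the TATA box, genes with only a weak peak stood nearer to genes with an IDR peak than to genes with no pooled summit. In Motif 1 and the TATA box their share was above that of genes with an IDR peak. In the DRE, Motif 7 and the Sry core they lay between the other classes. TAGCTA was picked for its frequency at IDR summits of these data. A higher share for genes with an IDR peak follows from that choice, so its values are a description. Over all 13968 protein-coding genes the same window held the DRE in 6.84%, Motif 1 in 4.58%, Motif 7 in 5.30%, TAGCTA in 2.92%, the Sry core in 2.33%, the Sry-beta consensus in 0.644%, the TATA box in 9.49%, the initiator in 20.6% and the GAGA element in 2.33%. A match or its absence describes these letters in this window only.

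At the level of genes, 5230 of 13968 protein-coding genes had a weak promoter peak within 500 bp of a TSS, and 4879 of them (34.9% of all genes) had no IDR promoter peak. A further 2518 genes (18%) had an IDR promoter peak, 351 of which had a weak one as well at another place in the window or at another TSS. The remaining 6571 genes had neither. Most weak promoter peaks (79.2%) had TSSs of 1 gene in the window and 19.6% of 2. Genes with many TSSs offer more window. Tm1, SNF4Agamma and Svil had the most weak promoter peaks, 9 each, over 8, 11 and 16 TSSs. Sry-alpha, Sry-beta and Sry-delta had no weak promoter peak. The windows of Sry-alpha and Sry-beta each held 1 IDR promoter peak with a signal of 309, which may be a single shared peak, and that of Sry-delta held 1 of 987.

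Gene lists were read as counts beside the 34.9% of all genes with a weak promoter peak only, and the 18% with an IDR promoter peak. No list was tested, and the lists were drawn up with earlier results of these data known. Over the gap, pair-rule, segment polarity, Hox and dorsoventral lists together, 26 of 52 genes had a weak promoter peak only (50%, 95% Wilson interval 36.9 to 63.1), 1 had an IDR promoter peak and 25 had neither. The weak signals had a median of 56.7, against 78.5 over all genes with a weak peak only. With the 5′-most TSS of each gene alone, 19 of the 52 had a weak peak only (36.5%, 95% Wilson interval 24.8 to 50.1), near the 33.8% of all genes counted that way. The Hox count was then 2 of 8 in place of 5 of 8, and the dorsoventral count 3 of 12 in place of 5 of 12.

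Among gap genes the highest was oc, a head homeobox gene, with a signal of 69.1 at -290 bp from the TSS, found in replicate 2 only. The peak of hb, the hunchback gene, had 53.7 and was found in neither replicate list. Among pair-rule genes hry, the hairy gene, had 65.6, with a rank of 3534 in replicate 2 and no summit in replicate 4. In the Hox list Abd-B had 74.8, with ranks of 5442 in replicate 2 and 20986 in replicate 4. The lab peak had 70.4, with ranks of 17257 and 9452. With the 5′-most TSS of each gene alone the highest Hox signal was 48.5, so neither of these peaks was counted that way. In the dorsoventral list sog, which encodes a BMP antagonist, had 84.5 and rho, a protease gene of EGF signalling, 83.5. Ranks in replicates 2 and 4 were 5606 and 20827 for sog, and 6587 and 28287 for rho. Segment polarity genes stood higher. The smo peak, at the gene of the Hedgehog signal transducer Smoothened, had 161.8 but no summit within 100 bp in either replicate list. The Wnt receptor gene fz2 had 118.8, with ranks of 2265 and 19339, and the Wnt co-receptor gene arr had 114.0.

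Maternal and genome activation genes also had weak promoter peaks, in lists to be read beside the 34.9% of all genes with a weak peak only. In the maternal patterning list 7 of 13 genes had a weak peak only and 3 an IDR peak. The highest was bcd, the anterior morphogen gene that Sry-delta activates in the ovary, with a signal of 135.8 at -177 bp from the TSS and ranks of 2084 in replicate 2 and 9267 in replicate 4. Next came stau, an mRNA transport gene, with 107.5. Of 4 regulators of genome activation, 3 had a weak peak only. These were Trl, which encodes GAF, with 102.0, Clamp with 90.6 and zld, the Zelda gene, with 66.3. Of 20 germ plasm and piRNA genes 10 had a weak peak only, among them mael with 115.7 and zuc with 111.6. The peaks counted for squ and gcl had other genes' TSSs nearer. With the 5′-most TSS of each gene alone, the weak-only counts were 6 of 13 maternal, 2 of 4 genome activation and 9 of 20 germ plasm and piRNA genes. Counted that way, the share of all genes was 33.8%.

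Genes of cell division and cell polarity had the highest shares among lists of 10 or more genes. In the cell cycle list 13 of 20 had a weak promoter peak only and 6 an IDR peak, with a median weak signal of 116.6. Examples are fzr, an activator of the anaphase-promoting complex, with 148.8 and ranks of 4767 and 3733, CycB3 with 144.5 and ranks of 1933 and 7330, and CycB with 144.3 and ranks of 1708 and 18814. The E2f1 peak had 148.8 but was in neither replicate list. In the junction and polarity list 14 of 20 had a weak peak only, led by cora, a septate junction gene, with 148.1, dlg1 with 122.8, aPKC with 118.8 and crb with 108.7. Of 11 Brahma complex genes, 6 had a weak and the other 5 an IDR promoter peak. In the insulator list 6 of 18 had a weak peak only, among them ZIPIC, which encodes another ZAD protein, with 153.7, pita with 136.6 and su(Hw) with 107.8, and 9 had an IDR peak.

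**Figure D5:**
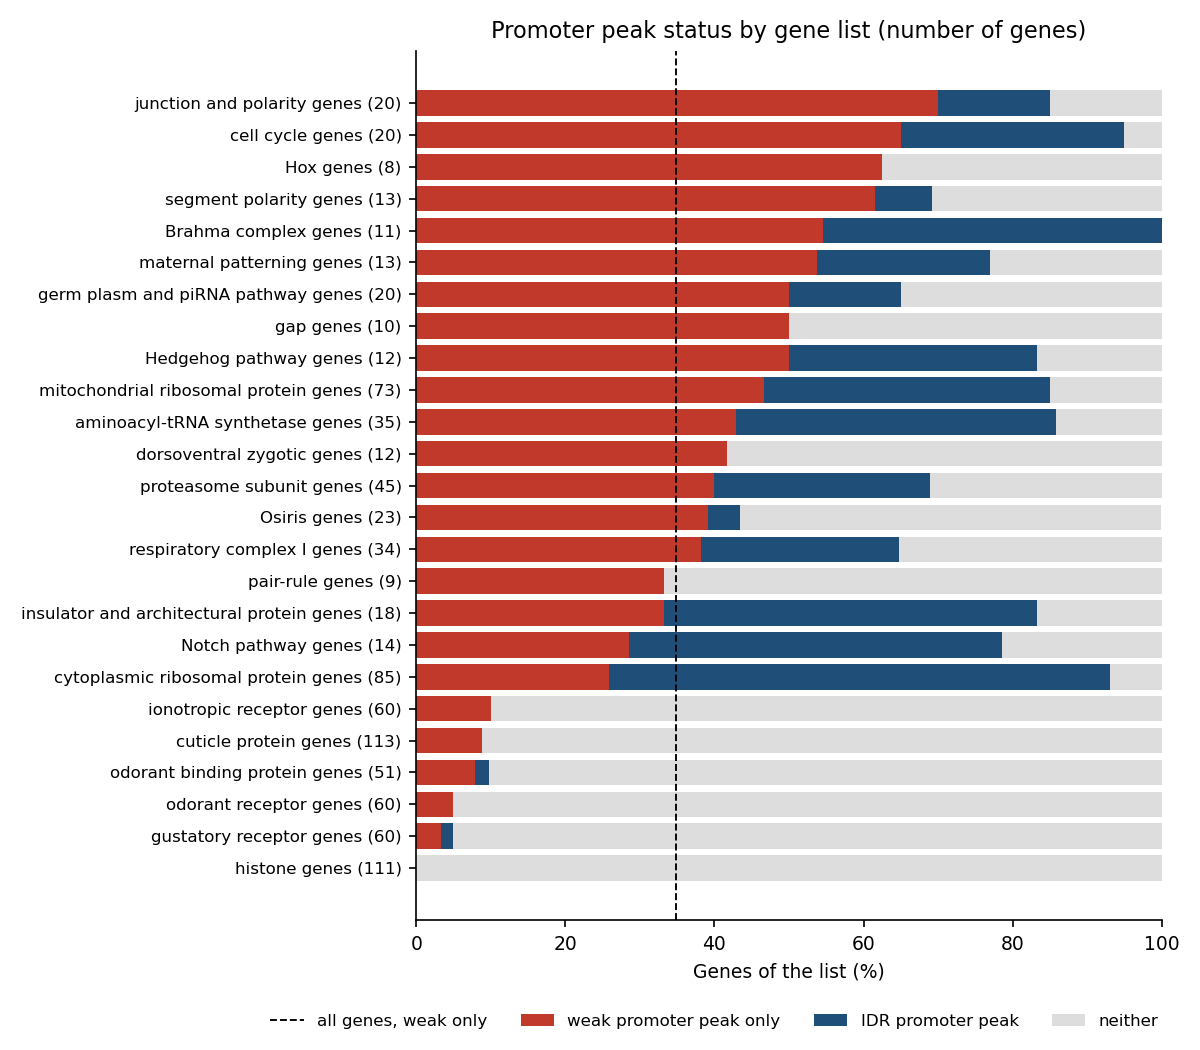
Percent of the genes of each list (x axis; lists of at least 8 genes, number of genes in brackets) with a weak promoter peak only, with an IDR promoter peak and with neither; the dashed line is the share of all protein-coding genes with a weak promoter peak only (34.9%). Junction and polarity genes reach 14 of 20 and cell cycle genes 13 of 20, while sensory receptor, odorant binding and cuticle genes stay at or below 10%.

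Housekeeping lists had a share of genes with only a weak peak near that of all genes. Over cytoplasmic and mitochondrial ribosomal protein, aminoacyl-tRNA synthetase, proteasome and respiratory complex I genes together, 102 of 272 had a weak promoter peak only (37.5%, 95% Wilson interval 32.0 to 43.4), 122 an IDR promoter peak (44.9%) and 48 neither. The weak signals had a median of 93.2. Cytoplasmic ribosomal protein genes leaned to IDR peaks, with 57 of 85, and had 22 weak only. These were led by RpL26 (162.1), RpL10 (155.3), RpLP1 (150.9) and RpL36 (148.8), whose summits lay from -21 to 22 bp from the TSS. Mitochondrial ribosomal protein genes had 34 of 73 weak only, led by mRpL47 (167.1), whose peak was nearer to CG8176, and proteasome genes had 18 of 45, with 13 IDR and 14 neither, led by Rpt4 (167.3), whose peak was nearer to mldr. Complex I genes had 13 of 34, with 9 IDR and 12 neither, led by ND-B22 with 167.4, a rank of 1769 in replicate 2 and no summit in replicate 4.

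Genes of sensory reception and cuticle seldom had any promoter peak. Over odorant, gustatory and ionotropic receptor, odorant binding protein and cuticle protein genes together, 25 of 344 had a weak promoter peak only (7.27%, 95% Wilson interval 4.97 to 10.5) and 2 an IDR promoter peak. Of 60 odorant receptor genes 3 had a weak peak, Or56a with 60.6, Or49a with 47.7 and Or45b with 45.7. All 3 summits lay in coding exons, and all were found in replicate 4 only. The highest in the receptor lists, Ir87a, had 120.2 and was found in both libraries, and the highest cuticle peak, at -489 bp from the TSS of Cpr97Eb, had 134.1. Osiris genes, a tandem cluster of insect epithelial genes, had 9 of 23 weak only, led by Osi5 with 98.0. None of the 111 histone genes of the tandem array had a peak, but these near-identical copies share their reads, and peaks there cannot be placed on 1 copy.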

How the data were processed

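The data were peak lists of 2 ChIP-seq libraries, deposited by the authors as 4 narrowPeak files with dm6 coordinates. The readme files deposited with them name as the source of each replicate's relaxed list that replicate's alignment and 1 control alignment, shared by both. The pooled list used both alignments with the same control, and the IDR list was drawn from these lists. The aligner, caller and threshold were not given in the sources used here. The signal of a peak is the authors' own, on an unstated scale, and comparisons of it stayed inside 1 list. Values of −log10 q, also deposited, were only counted. No read counts are given, so depth is unknown.

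Gene models were those of Ensembl (release 115), and bases were read from the Release 6 assembly. Summits past a peak's end (2 pooled peaks) were moved to its last base. Software was scipy 1.17.1, pandas 2.3.3 and numpy 2.4.6 under Python 3.11.15. Fisher's exact tests were two-sided, with Benjamini-Hochberg adjustment over 17 motifs per comparison, a threshold of 0.05 and 0.5 added to each cell of an odds ratio. Intervals are Wilson (95%). The motif search and the nearest-TSS step were tested on simulated data. The peaks and lists were chosen with earlier results of these data known. Named genes were those nearest to the 20 highest weak promoter peaks, to the 3 on each side of each limit and to the 10 highest with the Sry-beta consensus, the serendipity genes, and up to 4 per gene list with the highest weak signal. A few were left out of the text. Alternatives varied the window, the signal, the replicate, the motif width, the mismatches and the flanks.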

Additional observations from a re-analysis of the deposited data

How the results depend on the processing

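The number of weak promoter peaks ran from 4473 to 8731 with promoter windows of 250 and 1000 bp, and the upstream and head-to-head odds ratios kept their side of the threshold under all 8 and 9 alternatives tried, between 0.280 and 0.385 and between 0.321 and 0.486. With 1 replicate left out, both classes came from the list of the replicate kept, split at its own 3257 highest peaks, and the IDR list was not used. The counts of motifs past the threshold moved with several settings. Against flanks it was 8 to 14 with 1 replicate left out, in place of 13. Against IDR promoter summits it was 11 within 100 bp of the summit, in place of 7. Against promoter summits among the 3257 highest of the replicate kept, it was 8 to 11. All of these counts against higher promoter summits include TAGCTA, the word picked from these data. Against weak distal summits, a class set apart by the TSS distance itself, it was 6 among peaks above the median signal and 6 within 25 bp, in place of 10. The share of weak promoter peaks found in both replicates was 17.1% with summits within 50 bp and 52.0% within 200 bp, in place of 33.6%. Some odds ratios changed side of 1. Against weak distal summits, among peaks above the median signal, the Sry-beta consensus gave 0.885 and the GAGA element 0.973, and TAGCTA gave 1.01 without replicate 2, 1.05 without replicate 4 and 1.07 within 100 bp, in place of 0.983. TAGCTA against flanks 1000 bp away gave 0.959. Motif 1 gave 0.851 against IDR promoter peaks below their median signal. With 1 replicate left out, against promoter peaks among the 3257 highest of the replicate kept, Motif 1 gave 0.628 to 1.24, the lower value without replicate 4. The cause was not tested. IDR promoter peaks below their median signal, upstream summits alone and 1 peak per nearest gene were alternatives added after seeing the data. No paired analysis was possible because there was 1 group. The lists give no depth, so counting error cannot be set against any signal, and 2 replicates bound what the spread can show.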
